A study of Mus musculus with 12 samples.

Results

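Calponins, transgelins, smoothelin, leiomodin 1, and the regulatory light chain of smooth muscle myosin with its kinase were followed in RNA of mouse cardiomyocytes, through 9 genes: Cnn1, Cnn2, Cnn3, Tagln, Tagln2, Smtn, Lmod1, Myl9 and Mylk. They were taken by name from a table of read counts for 49568 genes, as classical targets of serum response factor (SRF) and the myocardin-related transcription factors (MRTFs) in smooth muscle, and all 9 were found. The libraries numbered 12, with 3 in each of 4 groups that crossed genotype with surgery. All mice were male and carried a tamoxifen-inducible Cre (labelled alphaMHC-MerCreMre/+) whose promoter is active in cardiomyocytes, and all received 3 daily injections of tamoxifen at 30 ug/g at 8 weeks of age. The double knockout mice (dKO, labelled MHC-MerCreMre/+; Mrtf-a-/-; Mrtf-bflox/flox) lacked MRTF-A in every cell and lost MRTF-B where the Cre acts, so that other cells of their hearts kept MRTF-B. Control mice carried the Cre alone. The groups were dKO after transaortic constriction (TAC, an operation that narrows the aorta, so that the left ventricle pumps against raised pressure), dKO after sham surgery, control after TAC and control after sham. Cells were released from the heart by perfusion 7 days after surgery, at 11 weeks of age, and cardiomyocytes were enriched by letting them settle. The labels place the surgery at 10 weeks and the series' design text at 8 weeks, and they do not state whether a library came from 1 mouse or from several. P-values therefore measure the spread between these libraries only.

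MRTFs are held in the cytoplasm by monomeric actin. When actin polymerises they enter the nucleus and bind SRF, which sits on a DNA element called the CArG box, and genes of actin filaments and of smooth muscle contraction are transcribed. In the heart many of the 9 genes are best known from vascular smooth muscle, while Cnn2, Cnn3 and Tagln2 are made in many cell types and several smooth muscle genes are also used by cardiomyocytes of the embryo and by fibroblasts that turn into myofibroblasts.

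CArG boxes were looked for in the promoters because SRF binds there. The windows ran from 250 bases before to 50 bases after the RefSeq gene start (GRCm38.p6), and 8 of the 9 genes had one, Tagln having none in the table used. RefSeq starts can differ from the gene bounds of other annotations, and those of all 8 genes lie inside the bounds given for them further on. The start of Mylk lies by far the farthest in, followed by that of Smtn. The element is written here as CC and GG framing a run of A and T bases of fixed length, and both strands were searched. An exact match stood in 2 of the 8 windows, Cnn2 and Myl9, against 535 of 32851 windows of all genes (1.63%). In Cnn2 it was CCTTATAAGG, 56 bases before the start (chr10:79988544-79988553, plus strand), and in Myl9 it was CCTAATAAGG, 161 bases before the start (chr2:156775303-156775312, plus strand). With 1 mismatch allowed in the framing or in the run, further matches stood in Lmod1, 189 and 164 bases before the start, and in Myl9, 99 bases before it, against 6527 windows of all genes (19.9%). The windows of Cnn1, Cnn3, Tagln2, Smtn and Mylk held none, which says only that these letters were not in these windows. A match is a description of the sequence, and binding was not measured. The 250 bases before the start are shown for the 2 genes with an exact match and for Cnn1 and Smtn, whose changes with TAC are described further on, with the exact match in capitals:
Cnn2 (chr10:79988350-79988599, plus strand): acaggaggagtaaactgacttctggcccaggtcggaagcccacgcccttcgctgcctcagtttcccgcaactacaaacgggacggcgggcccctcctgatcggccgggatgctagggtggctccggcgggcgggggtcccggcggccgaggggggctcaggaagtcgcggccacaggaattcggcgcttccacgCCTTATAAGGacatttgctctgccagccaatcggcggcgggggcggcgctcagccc
Myl9 (chr2:156775214-156775463, plus strand): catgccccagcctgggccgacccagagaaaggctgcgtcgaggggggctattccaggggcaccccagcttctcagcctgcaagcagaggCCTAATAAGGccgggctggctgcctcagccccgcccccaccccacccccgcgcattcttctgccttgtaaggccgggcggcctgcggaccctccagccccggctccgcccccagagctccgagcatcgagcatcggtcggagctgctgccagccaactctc
Cnn1 (chr9:22099003-22099252, plus strand): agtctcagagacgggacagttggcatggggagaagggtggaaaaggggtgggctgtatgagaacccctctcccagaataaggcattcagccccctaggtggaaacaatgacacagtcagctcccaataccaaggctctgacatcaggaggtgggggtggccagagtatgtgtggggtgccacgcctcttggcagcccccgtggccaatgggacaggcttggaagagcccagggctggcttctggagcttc
Smtn (chr11:3539293-3539542, minus strand): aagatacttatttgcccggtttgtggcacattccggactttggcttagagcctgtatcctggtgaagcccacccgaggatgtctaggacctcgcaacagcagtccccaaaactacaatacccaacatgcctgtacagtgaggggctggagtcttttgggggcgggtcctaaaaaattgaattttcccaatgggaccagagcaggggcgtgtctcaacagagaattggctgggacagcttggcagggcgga

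**Figure D1:**
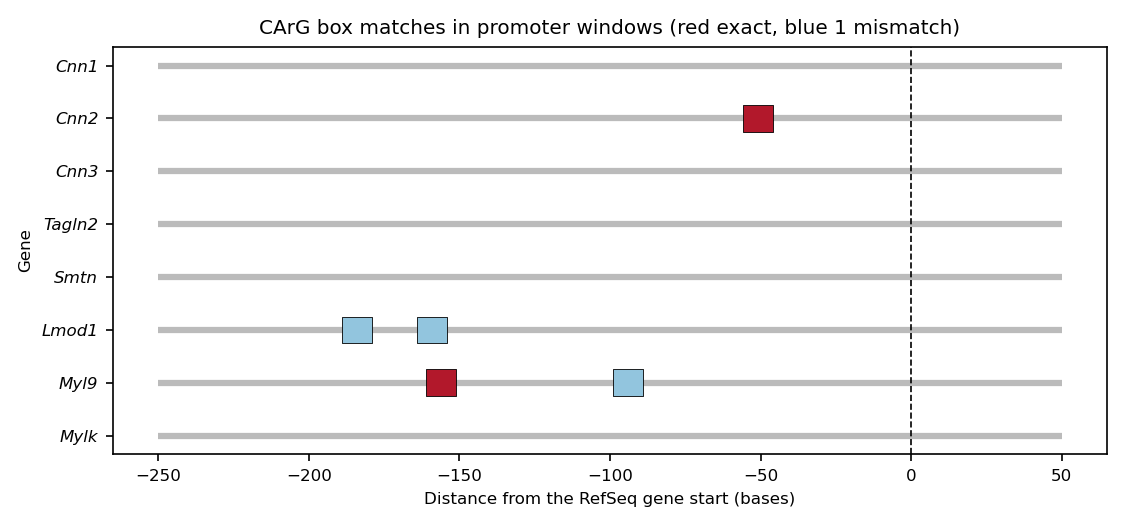
Positions of CArG box matches in the promoter windows of 8 genes, as distance in bases from the RefSeq gene start (dashed line). Grey bars are the windows searched, red boxes exact matches and blue boxes matches with 1 mismatch; the exact matches of Cnn2 and Myl9 lie 56 and 161 bases before the start.

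Total counts per library lay between 20082000 and 29675212, so that 3 counts, taken as the floor of detection, corresponded to 0.0935 to 0.184 CPM (read counts scaled to library size, here by the TMM method). Mkl1, which encodes MRTF-A, had 2.22 to 2.93 CPM in dKO TAC libraries and 9.32 to 16.0 in control TAC libraries, and 2.15 to 3.2 in dKO sham against 7.59 to 11.4 in control sham. Mkl2, which encodes MRTF-B, had 15.2 to 28.1 CPM in the 6 dKO libraries and 30.1 to 44.1 in the 6 control libraries, with a log2 difference of -0.71 ± 0.16 (SE) over both surgeries and an edgeR adjusted p of 0.0887. The cardiomyocyte myosin gene Myh6 had 11154 to 28100 CPM over the libraries. Defining genes of other cells were read in every library too, with 138 to 280.1 CPM for the endothelial Pecam1, 15.4 to 35.7 for the smooth muscle myosin gene Myh11 and 4.92 to 45.2 for the macrophage gene Adgre1. The libraries dKO sham replicate 1 and dKO TAC replicate 2 stood apart as a pair, since the deviation of a gene from the other replicates fell with its exon length there (Spearman rho across 9890 genes of -0.622 and -0.593), against -0.105 to 0.116 in the control libraries and 0.451 to 0.645 in the other dKO libraries. Some results that change without this pair are given with their values without it. Calls of the 9 genes gained or lost without it are named in the section on processing.

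All 9 genes are protein coding and are located here on GRCm38 (GENCODE mouse release 21). Cnn1 (ENSMUSG00000001349.5) lies at chr9:22099216-22109630, Cnn2 (ENSMUSG00000004665.10) at chr10:79988584-79996062 and Cnn3 (ENSMUSG00000053931.11) at chr3:121426497-121458207, all on the plus strand. Tagln (ENSMUSG00000032085.5) lies at chr9:45929619-45936058 on the minus strand and Tagln2 (ENSMUSG00000026547.15) at chr1:172500047-172507380 on the plus strand. Smtn (ENSMUSG00000020439.17) lies at chr11:3517523-3540612 on the minus strand. Lmod1 (ENSMUSG00000048096.7) at chr1:135324807-135368065, Myl9 (ENSMUSG00000067818.6) at chr2:156775420-156781658 and Mylk (ENSMUSG00000022836.11) at chr16:34745210-35002420 lie on the plus strand. Exons of Tagln are overlapped on the other strand by the antisense gene Gm48529 over 62.4% of their length and by the protein-coding Pcsk7 over 5.43%, which had 7115 counts over the 12 libraries, against 6879 for Tagln, and those of Cnn3 and Smtn by Gm42928 (17.7%) and Gm11946 (16.3%), which had at most 11 and 9 counts in any library. The library kit marks strand, but no source used here gives the strand setting of the counting, so reads of Gm48529 or Pcsk7 may be among those of Tagln.

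Per length of exon the genes differed widely in level. Over the 12 libraries Tagln2 had the highest mean, at 49.1 CPM per kilobase of exon (23.9 to 90.0), followed by Smtn at 32.6 (19.5 to 50.3), with overlapping ranges. Cnn3 at 16.6 (10.6 to 27.0), Myl9 at 16.4 (5.12 to 48.3) and Cnn2 at 16.3 (6.39 to 34.5) could not be placed in order, since their ranges over libraries lay on top of each other. Tagln followed at 10.4 CPM per kilobase (3.96 to 22.9), with a range that overlapped those of the 3 genes above it. Mylk at 2.13 (0.676 to 3.58), Cnn1 at 1.37 (0.0898 to 6.41) and Lmod1 at 0.545 (0.304 to 0.987) were the lowest, and their ranges overlapped too. The spread over libraries followed another order: the SD of log2 CPM was 2.10 for Cnn1, 0.918 for Myl9 and 0.908 for Tagln, against 0.387 for Smtn and 0.429 for Cnn3.

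**Figure D2:**
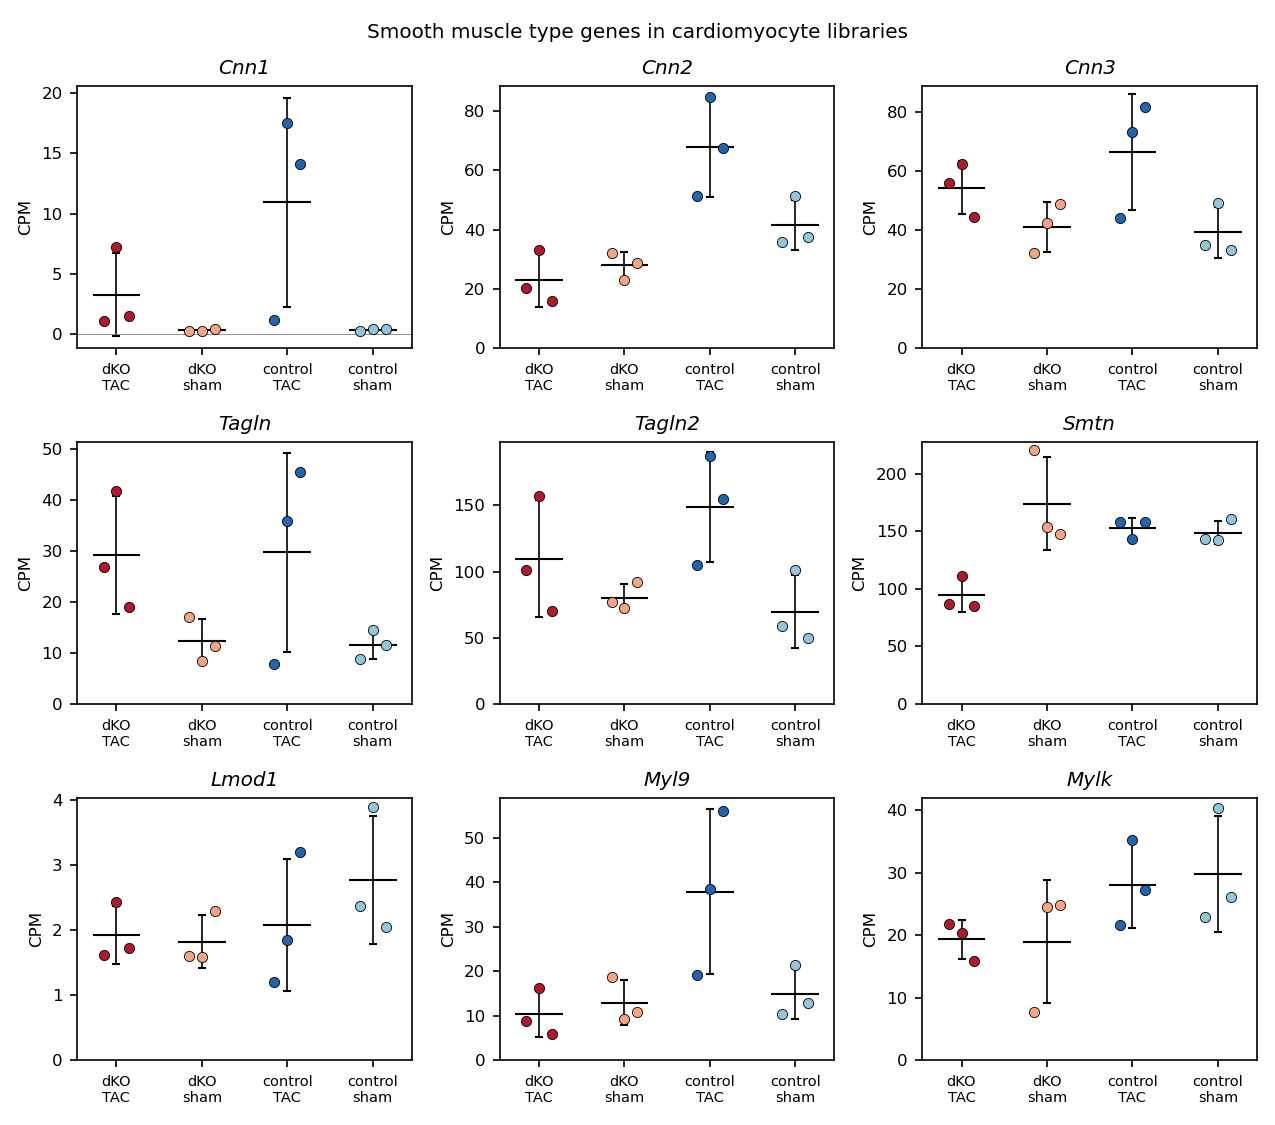
CPM of each of the 9 genes in every library (points), with the group mean (line) and SD (bar), for dKO TAC, dKO sham, control TAC and control sham (n = 3 each). Every axis includes 0, and that of Cnn1 runs below it. Cnn1 is at most 0.489 CPM in the sham libraries. The 3 dKO TAC points of Smtn lie under those of every other group, and the share of all genes doing so was not counted. The 6 dKO points of Cnn2 lie under the 6 control points, as in 0.544% of all genes.

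With TAC 1 of the 9 genes passed the test in each genotype. In dKO cardiomyocytes Smtn fell and no other gene of the 9 passed, where 7.39% of all 14712 genes tested did (3.19% as lower), so that the count itself is close to the background. In control cardiomyocytes Cnn1 rose and no other gene passed, again 1 of 9, where 2.25% of all genes passed (1.9% as higher). Cnn1 had passed the filter on low counts through the TAC libraries, as described further on. After TAC the dKO had less Cnn2 than control, the only call among the 9, where 0.428% of all genes passed (0.122% as lower), and after sham no gene of the 9 passed, where 0.068% of all genes did. The calls are by edgeR's quasi-likelihood test on all 12 libraries at a Benjamini-Hochberg adjusted p under 0.05 over all genes tested. The TAC effect in dKO and the TAC effect in control did not differ at that threshold for any of the 9, nor for any of the 14712 genes (edgeR, 0 calls; DESeq2 called 11), so that a call in only 1 genotype is not shown to be a difference between genotypes. At an unadjusted p under 0.05 the difference was past the line for 3 of the 9, Smtn, Myl9 and Cnn2, and for 697 of all genes (4.74%). In whole cardiomyocyte preparations, fewer cells of a type and less RNA per cell cannot be told apart.

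**Figure D3:**
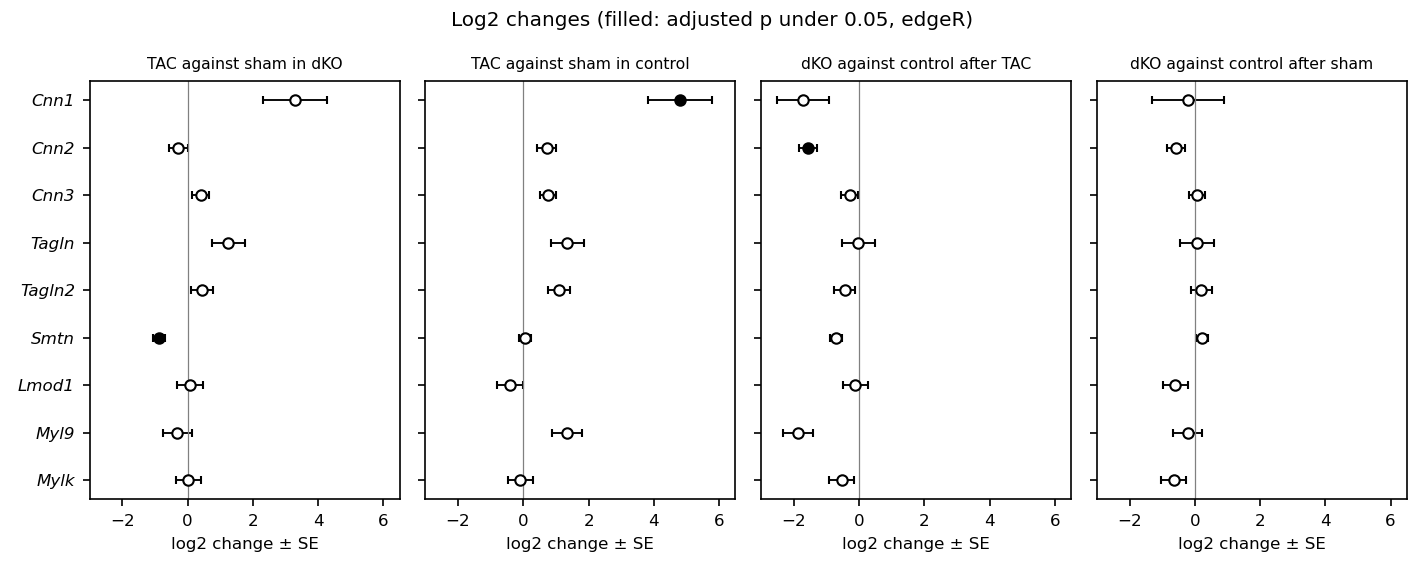
Log2 change ± SE of the 9 genes in 4 comparisons (edgeR, 3 libraries a group). Filled points have an adjusted p under 0.05: Smtn at -0.88 for TAC against sham in dKO, Cnn1 at 4.81 for TAC against sham in control and Cnn2 at -1.56 for dKO against control after TAC. Cnn1 passed the filter on low counts through its TAC libraries.

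Cnn1, calponin 1, is an actin-binding protein of differentiated smooth muscle. It had 1.12, 7.26 and 1.52 CPM in dKO TAC libraries and 0.246, 0.252 and 0.489 CPM in dKO sham libraries (replicates 1, 2 and 3, as in all such lists). Control libraries had 1.16, 17.5 and 14.2 CPM after TAC and 0.320, 0.428 and 0.409 CPM after sham, where 7 to 11 reads stood behind each value. All 6 TAC libraries thus lay above all 6 sham libraries, as in 3.83% of all genes, and control TAC replicate 1 lay near the dKO TAC libraries. The log2 change with TAC was 4.81 ± 0.98 in control (28-fold, adjusted p = 0.0289) and 3.29 ± 0.98 in dKO (9.77-fold, adjusted p = 0.06). It was 4.05 ± 0.69 over both genotypes (adjusted p = 0.00294). Cnn1 passed the filter on low counts through the TAC libraries (3 dKO TAC, 1 dKO sham, 3 control TAC and 1 control sham library were past the minimum), so that it could enter the test only by being higher there. In dKO the size rested on 1 library: without dKO TAC replicate 2 the log2 change was 1.96, and 1.82 when dKO sham replicate 1 was left out as well. Between genotypes Cnn1 averaged 3.30 ± 3.44 CPM in dKO TAC and 10.96 ± 8.65 CPM in control TAC (SD, n = 3 each), a log2 difference of -1.72 ± 0.81 (adjusted p = 0.57) with overlapping groups. That value too moved with single libraries, between -3.05 without dKO TAC replicate 2 and -1.2 without control TAC replicate 2, and it did not pass with any 1 of the 12 left out. After sham the means were 0.329 ± 0.139 in dKO and 0.386 ± 0.058 CPM in control.

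Cnn2, calponin 2, is found in smooth muscle and in many other cells, including fibroblasts and macrophages. It had 20.1, 33.0 and 15.7 CPM in dKO TAC libraries against 51.3, 84.9 and 67.5 CPM in control TAC libraries. After sham it had 32.1, 23.0 and 28.5 CPM in dKO against 35.8, 51.2 and 37.4 CPM in control. No dKO library reached the lowest control library of its own surgery, nor that of the other surgery. The log2 difference between dKO and control was -1.56 ± 0.28 after TAC (0.338-fold, adjusted p = 0.0376) and -1.07 ± 0.20 over both surgeries (0.477-fold, adjusted p = 0.0303). Over both surgeries Cnn2 was the one of the 9 that passed, where 0.585% of all genes did, and complete separation of the 6 dKO from the 6 control libraries on the lower side was seen in 0.544% of all genes. After sham alone the groups also did not overlap, as in 9.42% of all genes, but the log2 difference of -0.57 ± 0.28 did not pass (adjusted p = 0.507). With TAC Cnn2 averaged 67.9 ± 16.8 CPM in control TAC and 41.5 ± 8.47 in control sham (log2 0.71 ± 0.28, adjusted p = 0.21), without overlap, as in 11% of all genes on the higher side. In dKO the means were 22.9 ± 8.97 CPM after TAC and 27.9 ± 4.59 CPM after sham (log2 -0.28 ± 0.28, adjusted p = 0.534), and the difference of the changes in dKO and in control was -0.99 ± 0.39 (unadjusted p = 0.0267, adjusted p = 0.841).

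Cnn3, calponin 3, is the acidic calponin of many non-muscle tissues. It had 56.0, 62.4 and 44.6 CPM in dKO TAC libraries and 32.2, 42.3 and 48.9 in dKO sham libraries. In control it had 44.3, 73.2 and 81.9 CPM after TAC and 35.0, 49.3 and 33.4 CPM after sham. In each genotype the TAC and sham libraries overlapped. Neither genotype alone passed (log2 0.40 ± 0.25 in dKO, adjusted p = 0.326; 0.76 ± 0.26 in control, adjusted p = 0.149). Over both genotypes Cnn3 rose by 0.58 ± 0.18 on the log2 scale (adjusted p = 0.0459), a call that edgeR kept only without control sham replicate 2, control TAC replicate 1, dKO sham replicate 3 or dKO TAC replicate 3 and that was lost without any 1 of the other 8 libraries (adjusted p between 0.0643 and 0.118). The call was also lost without the pair of libraries that stood apart. Between genotypes the log2 difference of Cnn3 was -0.29 ± 0.25 after TAC and 0.07 ± 0.25 after sham, and neither passed.

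Tagln, transgelin or SM22-alpha, binds actin and is an early marker of smooth muscle. It had 27.0, 41.8 and 19.0 CPM in dKO TAC libraries and 17.0, 8.49 and 11.4 CPM in dKO sham libraries. The values in control were 7.86, 35.9 and 45.6 CPM after TAC and 8.82, 14.5 and 11.7 CPM after sham. The dKO groups did not overlap, as in 16.2% of all genes on the higher side, whereas control TAC replicate 1 lay below every control sham library. The log2 change with TAC was 1.26 ± 0.51 in dKO (adjusted p = 0.14) and 1.35 ± 0.51 in control (adjusted p = 0.196). Over both genotypes Tagln rose by 1.30 ± 0.36 (2.47-fold, adjusted p = 0.03). That call was lost without control sham replicate 1 or 3, control TAC replicate 2 or 3, dKO sham replicate 2, or dKO TAC replicate 1 or 2 (adjusted p between 0.0586 and 0.0824). The means after TAC were 29.3 ± 11.6 CPM in dKO and 29.8 ± 19.6 CPM in control, a log2 difference of -0.03 with a 95% interval from -1.11 to 1.06, which includes a change of more than 1 log2 unit either way. After sham they were 12.3 ± 4.33 CPM in dKO and 11.7 ± 2.85 CPM in control (log2 0.07 ± 0.51).

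Tagln2, transgelin 2, is the transgelin of non-muscle cells and the most abundant of the 9 per length of exon. It had 102, 157 and 70.6 CPM in dKO TAC libraries and 76.9, 72.3 and 92.2 CPM in dKO sham libraries. Control libraries had 105, 187 and 155 CPM after TAC and 58.7, 101 and 49.8 CPM after sham. The control groups did not overlap, as in 11% of all genes on the higher side, and the dKO groups did. The log2 change with TAC was 1.09 ± 0.33 in control (adjusted p = 0.116) and 0.45 ± 0.33 in dKO (adjusted p = 0.39). Over both genotypes Tagln2 rose by 0.77 ± 0.23 (1.71-fold, adjusted p = 0.0416), a call that held only without control sham replicate 2, control TAC replicate 1, dKO sham replicate 3 or dKO TAC replicate 3 and was lost without any 1 of the other 8 (adjusted p between 0.057 and 0.109). The call was also lost without the pair of libraries that stood apart. In the genotype comparisons the log2 differences of Tagln2 were -0.44 ± 0.33 after TAC and 0.20 ± 0.33 after sham, with overlapping groups in both.

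Smtn, smoothelin, is an actin-associated protein of contractile smooth muscle. It had 86.7, 111 and 85.3 CPM in dKO TAC libraries and 220.3, 154 and 148 CPM in dKO sham libraries. The values in control were 158, 143 and 158 CPM after TAC and 143, 142 and 161 CPM after sham. The 3 dKO TAC libraries lay below all 9 others, among which dKO sham replicate 1 was the highest. The share of all genes with this pattern was not counted. Smtn fell with TAC in dKO by 0.88 ± 0.19 on the log2 scale (0.543-fold, adjusted p = 0.0186), where 14.5% of all genes separated on the lower side. In control its log2 change was 0.04 ± 0.19 (adjusted p = 0.955). The difference of these changes was -0.92 ± 0.27 (unadjusted p = 0.00442, adjusted p = 0.841). Between genotypes the means were 94.4 ± 14.5 CPM in dKO TAC and 153 ± 8.47 CPM in control TAC (log2 -0.70 ± 0.19, adjusted p = 0.175). These groups did not overlap, as in 7.79% of all genes on the lower side. After sham the means were 174 ± 40.2 CPM in dKO and 149 ± 10.2 CPM in control (log2 0.22 ± 0.19, adjusted p = 0.586). Without the pair of libraries that stood apart the fall with TAC in dKO was 0.81 (adjusted p = 0.00537), and the difference after TAC was -0.83 and passed (adjusted p = 0.00589). Over both surgeries the log2 difference between dKO and control was -0.24 ± 0.13 (edgeR adjusted p = 0.45), and it passed without this pair. Over both genotypes the log2 change with TAC was -0.42 ± 0.13 (adjusted p = 0.0485). That call held only without dKO sham replicate 1 or 3 or dKO TAC replicate 2 and was lost without any 1 of the other 9 libraries (adjusted p between 0.0522 and 0.135).

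Lmod1, leiomodin 1, nucleates actin filaments in smooth muscle and was the lowest of the 9 per length of exon. It had 1.62, 2.43 and 1.72 CPM in dKO TAC libraries and 1.60, 1.58 and 2.30 CPM in dKO sham libraries. In control it had 1.2, 1.85 and 3.2 CPM after TAC and 2.38, 3.90 and 2.05 CPM after sham. The groups overlapped in every comparison. Its log2 change with TAC was 0.08 ± 0.39 in dKO and -0.41 ± 0.39 in control, and its log2 difference between dKO and control was -0.11 ± 0.39 after TAC and -0.60 ± 0.39 after sham, and none passed (adjusted p from 0.529 to 0.973).

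Myl9 encodes the regulatory light chain of smooth muscle and non-muscle myosin II. It had 8.86, 16.1 and 5.95 CPM in dKO TAC libraries against 19.1, 38.6 and 56.1 CPM in control TAC libraries. After sham it had 18.7, 9.14 and 10.8 CPM in dKO against 10.5, 21.5 and 12.9 CPM in control. The groups were separate after TAC, as in 7.79% of all genes on the lower side, and overlapped after sham. After TAC the log2 difference between dKO and control was -1.88 ± 0.46 (0.273-fold), but it did not pass over all genes (unadjusted p = 0.00146, adjusted p = 0.124). It passed without the pair of libraries that stood apart (log2 -2.35, adjusted p = 0.0302). With TAC the log2 change was 1.34 ± 0.45 in control (adjusted p = 0.15) and -0.31 ± 0.45 in dKO (adjusted p = 0.681), and the difference of these changes was -1.65 ± 0.64 (unadjusted p = 0.0231, adjusted p = 0.841).

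Mylk encodes the calmodulin-dependent kinase that phosphorylates this light chain and so starts smooth muscle contraction. It had 21.8, 20.4 and 15.9 CPM in dKO TAC libraries and 7.62, 24.5 and 24.8 CPM in dKO sham libraries. In control it had 21.6, 35.2 and 27.2 CPM after TAC and 22.9, 40.3 and 26.2 CPM after sham. The low value of dKO sham replicate 1 set the wide spread of its group. Mylk has the longest exon length of the 9, at 11263 nt, and a link of that low value with length was not tested. Its log2 difference between dKO and control was -0.53 ± 0.37 after TAC (adjusted p = 0.766) and -0.64 ± 0.38 after sham (adjusted p = 0.513), and its log2 changes with TAC were 0.02 ± 0.38 in dKO and -0.09 ± 0.37 in control. After TAC the gene of the light chain was thus separate between genotypes and that of its kinase was not, and the difference of the pair was not tested.

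Read as a list, the 9 genes had a median log2 change with TAC of 0.76 in control, against 0.00 over all genes tested, and of 0.08 in dKO, against -0.01 over all genes. With TAC, 7 of 9 changes were positive in control (50.1% of all genes) and 6 of 9 in dKO (49.5%). Between dKO and control the median was -0.53 after TAC, against -0.03 over all genes, with 9 of 9 differences negative (54% of all genes). After sham it was -0.20, against 0.02 over all genes, with 5 of 9 negative (48.5% of all genes). Marker lists of other cells, described further on, leaned the same way for dKO against control after TAC. Negative differences numbered 14 of 14 endothelial, 15 of 15 macrophage, 14 of 15 fibroblast and 10 of 11 activated fibroblast markers. They numbered 11 of 13 for pericyte and smooth muscle markers and 7 of 14 for cardiomyocyte markers. With TAC in dKO, negative changes numbered 13 of 14 endothelial, 10 of 13 pericyte and smooth muscle and 8 of 14 cardiomyocyte markers. There they numbered 5 of 15 fibroblast, 1 of 15 macrophage and 0 of 11 activated fibroblast markers, against 50.5% of all genes. Why the lists leaned in these ways was not tested. After TAC 3 of the 9 genes, Cnn2, Smtn and Myl9, had dKO libraries that all lay below all control libraries, as did 7.79% of all genes. With TAC in control, 3 of the 9, Cnn1, Cnn2 and Tagln2, were higher without overlap, as were 11% of all genes. With TAC in dKO 2 of the 9, Cnn1 and Tagln, were higher without overlap (16.2% of all genes) and 1, Smtn, was lower (14.5%). The comparisons with TAC and those between genotypes share libraries, so that control TAC enters both the median of TAC in control and that of dKO against control after TAC. Over both genotypes TAC moved 5 of the 9 past the threshold, with Cnn1, Tagln, Tagln2 and Cnn3 higher and Smtn lower, where 16.6% of all genes passed (9.53% as higher and 7.08% as lower). Of these, Cnn1 had passed the filter on low counts through the TAC libraries.

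The calls in single comparisons depended on single libraries. The fall of Smtn with TAC in dKO was lost without dKO TAC replicate 1 (adjusted p = 0.106) or dKO TAC replicate 3 (adjusted p = 0.0881), with log2 changes between -1.01 and -0.68 over all 12 leave-outs. The rise of Cnn1 with TAC in control was lost without control sham replicate 1 (adjusted p = 0.143), 2 (adjusted p = 0.0565) or 3 (adjusted p = 0.158) and without control TAC replicate 2 (adjusted p = 0.105) or 3 (adjusted p = 0.0909). Without control TAC replicate 1 it was strongest (adjusted p = 0.00226), and 5 of the 9 genes passed: Cnn1, Tagln, Tagln2, Cnn3 and Myl9. The lower Cnn2 of dKO after TAC passed without dKO TAC replicate 2, dKO sham replicate 1 or control sham replicate 2, and was lost without any 1 of the other 9, with an adjusted p of 0.216 without dKO TAC replicate 1, 0.182 without dKO TAC replicate 3, 0.14 and 0.108 when control TAC replicate 2 and control TAC replicate 3 were left out, and between 0.0523 and 0.0715 without the others. Its log2 difference lay between -1.91 and -1.34 throughout. Over both surgeries the Cnn2 call was kept without control TAC replicate 1, dKO sham replicate 1 or dKO TAC replicate 2 and lost without any 1 of the other 9 (adjusted p between 0.0585 and 0.122). The rise of Cnn1 with TAC over both genotypes passed without each of the 12 libraries. With all libraries, however, Cnn1 had passed the filter on low counts through the TAC libraries, where it is high. Some changes that did not pass over all 12 libraries passed with 1 left out: Cnn1 and Tagln with TAC in dKO without control TAC replicate 1 (adjusted p = 0.0156 and 0.0364), Tagln2 with TAC in control without control sham replicate 2 (adjusted p = 0.0476), and the lower Smtn of dKO after TAC without dKO sham replicate 1 (adjusted p = 0.0284).

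**Figure D4:**
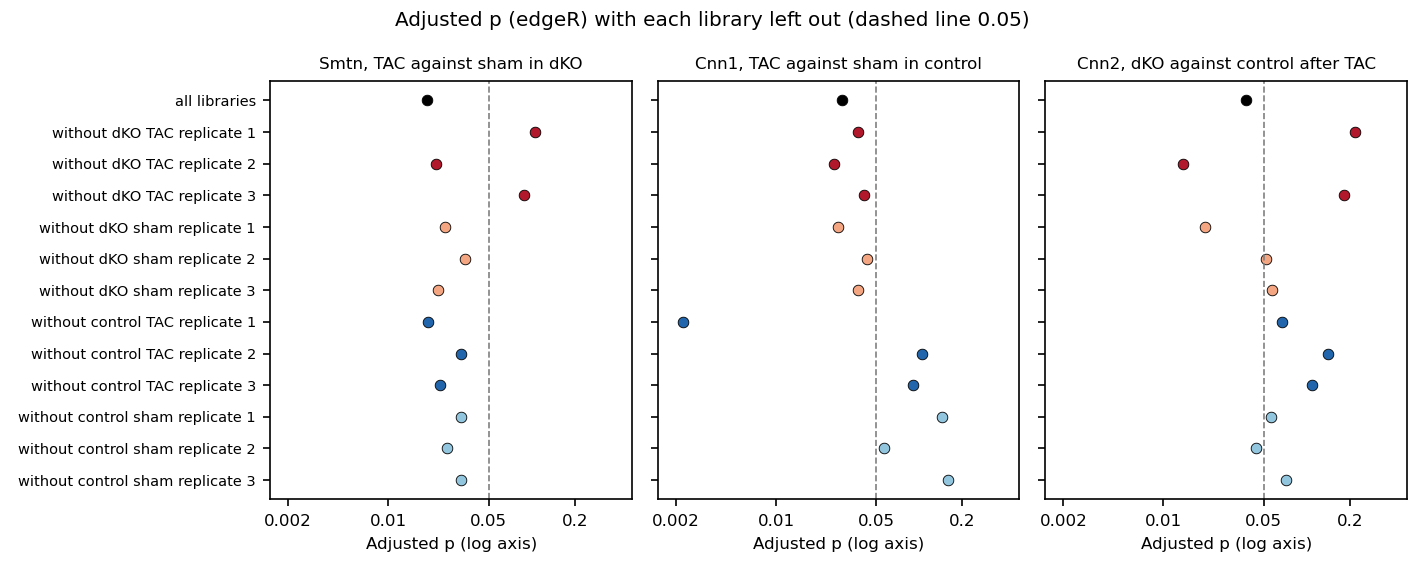
Adjusted p (edgeR, log axis) of the 3 calls in single comparisons, with all 12 libraries and with each library left out. Points right of the dashed line at 0.05 no longer pass: 2 for Smtn, 5 for Cnn1 and 9 for Cnn2.

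Other genes of the same systems were counted for comparison. Of 35 further SRF targets of contraction and the actin cytoskeleton, all tested, 5 rose with TAC in dKO and none fell, with a median log2 change of 0.58 against -0.01 over all genes. They included the fibronectin receptor subunit Itga5 (1.19 ± 0.18, adjusted p = 0.00493), the actin-associated Pdlim5 (1.17 ± 0.22, adjusted p = 0.0105), the non-muscle myosin gene Myh10 (1.64 ± 0.36, adjusted p = 0.0207) and Wdr1 (0.71 ± 0.17, adjusted p = 0.0278), which takes part in actin filament disassembly. In control 2 of the 35 rose, Itga5 (1.0 ± 0.18, adjusted p = 0.019) and the focal adhesion gene Zyx (1.02 ± 0.23, adjusted p = 0.04), and none fell, with a median of 0.75 against 0.00 over all genes. Of all genes tested, 4.2% rose and 3.19% fell with TAC in dKO, and 1.9% rose and 0.347% fell in control. Between dKO and control none of the 35 passed after TAC (median -0.32, 25 of 35 negative against 54% of all genes) or after sham (median -0.28, 26 of 35 negative against 48.5%). Of all genes 0.428% passed after TAC and 0.068% after sham. Over both surgeries, where 0.585% of all genes passed, 1 of the 35 did, Acta2. This smooth muscle actin gene had 23.0, 51.2 and 15.7 CPM in dKO TAC libraries against 74.8, 145 and 127 CPM in control TAC libraries, and 32.1, 19.8 and 19.4 in dKO sham against 52.0, 93.2 and 54.9 in control sham. Its 6 dKO libraries lay below its 6 control libraries, as for Cnn2 and for 0.544% of all genes. The log2 difference of Acta2 was -1.72 ± 0.30 over both surgeries (adjusted p = 0.0218). After TAC alone it did not pass (-1.95 ± 0.42, adjusted p = 0.0802). Myh11, the heavy chain that works with the light chain of Myl9 in smooth muscle, had 17.1 to 25.3 CPM in dKO TAC against 15.4 to 32.4 in control TAC and 18.4 to 22.3 in dKO sham against 24.2 to 35.7 in control sham, and it passed in no comparison. Actg2, enteric smooth muscle actin, reached at most 1.17 CPM in any library. Srf itself had 52.1 to 59.6 CPM in dKO TAC against 80.8 to 105 in control TAC (log2 -0.77 ± 0.18, adjusted p = 0.101), and Myocd, the cofactor of SRF in cardiac and smooth muscle, passed in no comparison.

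Among 12 relatives of the 9 genes, of which 11 could be tested, the one with the most calls was Mylk4, a myosin light chain kinase of striated muscle. It had 22, 30.1 and 31.0 CPM in dKO TAC libraries and 138, 230.0 and 155 CPM in dKO sham libraries. In control it had 166, 77.8 and 91.9 CPM after TAC and 310.5, 195 and 324 CPM after sham. In both genotypes the TAC libraries lay below the sham libraries, as in 14.5% of all genes in dKO and 10.8% in control. Mylk4 fell with TAC in dKO by 2.65 ± 0.33 on the log2 scale (adjusted p = 0.00196), its log2 change in control was -1.30 ± 0.32 (adjusted p = 0.0547), and it was lower in dKO than in control after TAC (-2.02 ± 0.32, adjusted p = 0.0243). The cardiac kinase gene Mylk3 passed as lower with TAC over both genotypes only (-0.52 ± 0.16, adjusted p = 0.0475). Smooth muscle Mylk, with the values given above, passed in none. The non-muscle light chain genes Myl12a (493 to 869 CPM over all libraries) and Myl12b (25.3 to 59.3 CPM) and the cardiac leiomodin gene Lmod2 (594 to 1098 CPM) passed in no comparison.

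Markers of the other cells that such a preparation can hold were summed per library. For the calls below, 4.2% of all genes rose and 3.19% fell with TAC in dKO. The shares were 1.9% and 0.347% in control, and 9.53% and 7.08% over both genotypes. Pericyte and smooth muscle markers outside the contractile genes (13 genes, led by Rgs5) came to 1091 to 1266 CPM in dKO TAC, 1183 to 1911 in dKO sham, 1276 to 1613 in control TAC and 1575 to 2089 in control sham, and none of the 13 passed with TAC in either genotype alone. Over both genotypes 2 of the 13 fell with TAC, the potassium channel genes Kcnj8 and Abcc9, and none rose. Rgs5 had 347.5 to 454 CPM in dKO TAC and 464 to 608 in control TAC. Activated fibroblast markers (11 genes, among them Postn) came to 3039 to 4629 CPM in dKO TAC against 171 to 494 in dKO sham, and to 1095 to 11824 in control TAC against 219.9 to 765 in control sham, and 8 of the 11 rose with TAC in each genotype. Control TAC replicate 1 was the lowest library of its group for 8 of the 9 genes, all but Smtn. How many of all genes were lowest in this library of the group was not counted. It was also the lowest for this list (1095 CPM), for endothelial markers (2111 CPM) and for fibroblast markers (889 CPM, against 1418 and 2121). The same held for macrophage markers (244 CPM, against 519.9 and 832). For pericyte and smooth muscle markers it lay between replicates 2 and 3 (1391 CPM, against 1613 and 1276). It was the highest for cardiomyocyte markers (89661 CPM, against 68091 and 56352). Macrophage markers came to 305 to 559 CPM in dKO TAC against 269 to 337 in dKO sham, and to 244 to 832 in control TAC against 169 to 367 in control sham. Fibroblast markers came to 955 to 1276 CPM in dKO TAC against 1145 to 1397 in dKO sham, and to 889 to 2121 in control TAC against 974.5 to 1579.5 in control sham. With TAC 3 of 15 fibroblast markers, Col15a1, Mfap5 and Meox1, rose in each genotype, while Gsn and Scara5 fell in dKO, and over both genotypes 6 rose and 3 fell. Gsn was a large part of the fibroblast sum. It averaged 255 ± 103 CPM in dKO TAC and 738 ± 75.7 CPM in dKO sham, and 384 ± 43.1 CPM in control TAC and 654 ± 199 CPM in control sham. The whole list averaged 1107, 1229, 1476 and 1186 CPM in the same order. With TAC 10 of the 15 log2 changes were positive in dKO (median 0.53) and 12 of 15 in control (median 0.71), so the sum does not describe most of its genes. Of 15 macrophage markers none passed in either genotype alone and 6 rose over both genotypes. Postn had 136, 763 and 2364 CPM in control TAC replicates 1, 2 and 3. The fibroblast gene Pdgfra averaged 31.4 ± 5.45 CPM in dKO TAC, 18.6 ± 11.98 in dKO sham, 31.9 ± 16.2 in control TAC and 24.9 ± 6.45 in control sham, and passed in no comparison. Endothelial markers came to 1476 to 2459.6 CPM in dKO TAC against 2394 to 3144.5 in dKO sham. In control they came to 2111 to 2812 CPM after TAC and 2010 to 2798 after sham. Of 14 endothelial markers none passed in either genotype alone and Ly6c1 fell over both genotypes. Cardiomyocyte markers came to 54148 to 63010 CPM in dKO TAC against 56352 to 89661 in control TAC, with 134400 in dKO sham replicate 1. Of these 14, Ckm and Tcap fell with TAC in dKO, none passed in control, and Tnni3, Ckm and Tcap fell over both genotypes. The 9 genes together came to 260.3 to 452 CPM in dKO TAC, 335 to 407 in dKO sham, 409.6 to 618 in control TAC and 318 to 425 in control sham. The part of other cells in these values was not tested.

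**Figure D5:**
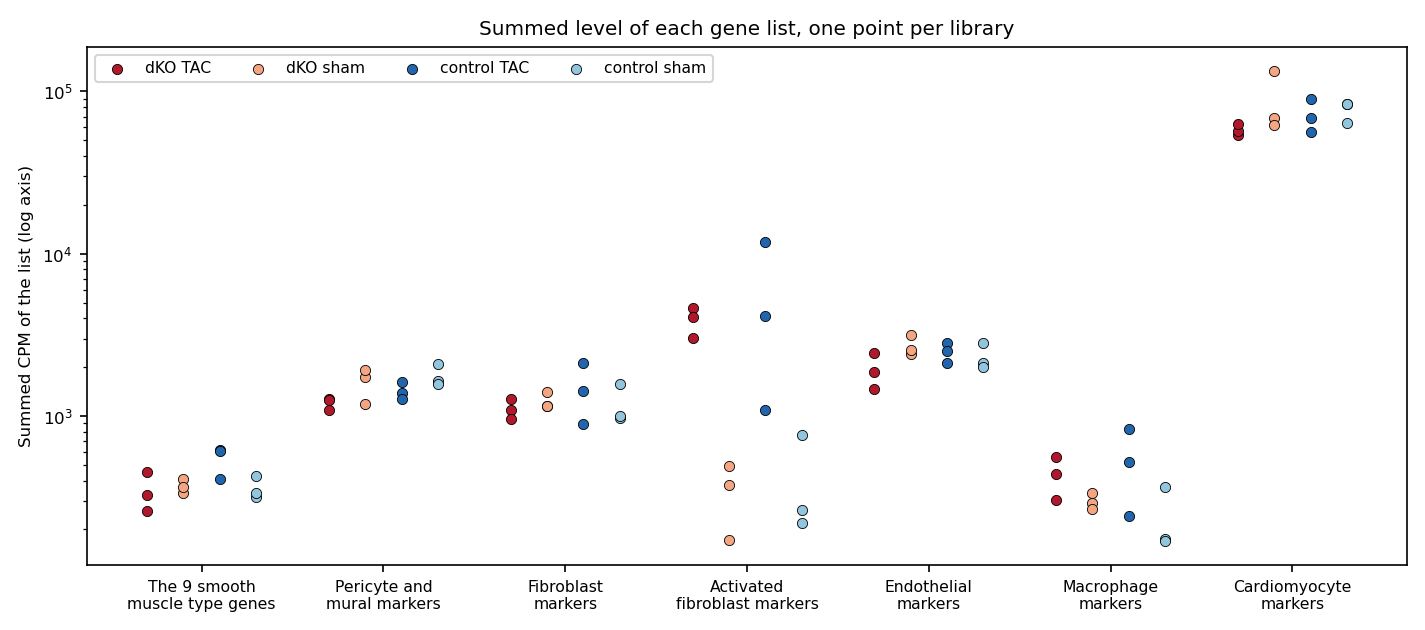
Summed CPM of the 9 genes and of 6 marker lists in every library (log axis), for dKO TAC, dKO sham, control TAC and control sham (3 points each). Activated fibroblast markers are at 1095 CPM or more in each TAC library and at 765 CPM or less in each sham library; the sums of the 9 genes are highest in control TAC replicates 2 and 3, at 618 and 608 CPM.

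The genes most alike in pattern to the 4 members of greatest spread were sought among 12032 genes whose mean over libraries was 1 CPM or more, by the root mean square difference of centred log2 CPM over the 12 libraries. Pdlim7, which encodes a protein of actin filaments and the Z-disc, came first for Cnn2 (0.27 log2 units) and for Myl9 (0.40). It averaged 22.8 ± 4.0 CPM in dKO TAC, 22.5 ± 5.85 in dKO sham, 52.9 ± 15.8 in control TAC and 29.5 ± 2.41 in control sham. For Cnn2 the next were beta-actin Actb (0.32) and Abracl (0.34), and for Myl9 the tropomyosin gene Tpm2 (0.43) and the focal adhesion gene Tgfb1i1 (0.46). Tpm2 averaged 13.6 ± 6.26 CPM in dKO TAC, 13.6 ± 7.10 in dKO sham, 35.9 ± 5.66 in control TAC and 16.4 ± 7.34 in control sham. Tagln was nearest to other genes: Olfml3 (0.31), Gins2 (0.32) and Cd72 (0.33). Cnn1 was nearest to Mxd3 (0.90), Fam64a (0.92) and Piezo2 (0.94), farther than any of the distances given for the other 3. The libraries share depth and scaling across genes, and these distances are a description with no test.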

How the data were processed

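Single 100-nt reads came from a stranded poly(A) kit, per the labels' protocols. The deposited table holds raw counts per gene. Trimmomatic 0.36, STAR 2.5.2b, Subread 1.5.0p3, featureCounts and the genome GRCm38.p5 are named in the submitters' processing notes, while settings and annotation were not found in the sources used here. All 12 libraries entered 1 fit of edgeR 4.0.16 (R 4.3.3; quasi-likelihood test, TMM scaling, filterByExpr by group, a mean per group, 8 residual degrees of freedom). A call is an adjusted p (Benjamini-Hochberg, over the 14712 genes tested) under 0.05. CPM uses TMM-scaled library sizes, and floors cover counting error only. Gene positions come from GENCODE mouse release 21 (14557 tested genes matched). Alternatives were DESeq2 1.42.0, limma-voom 3.58.1, other scalings and filters, a replicate block, left-out libraries and removal of the trend with exon length. The steps were tested on simulated counts. The members, lists, tests and the rule for named genes (every member, the called genes of smallest p in the 2 related lists, fixed controls and markers, and the 3 genes nearest in pattern) were chosen with earlier results of these data known. No pair of libraries within a group was a duplicate. Figures were drawn with matplotlib 3.10.9.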

Additional observations from a re-analysis of the deposited data

How the results depend on the processing

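Every result was recomputed under 11 other settings, where they applied, and without each library in turn; depth limits Cnn1 in sham libraries, where it rested on 4 to 13 reads, and Actg2, and with 3 libraries a group the SE of a log2 change in 1 genotype or surgery was 0.19 to 1.1 for the 9 genes. Of the log2 changes of the 9 genes, those settings left 616 with the same direction and side of the threshold, while 19 passed anew, 12 no longer passed and 18 turned direction. The cause was not tested.

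For TAC against sham in dKO, calls among the 9 genes numbered 1 (Smtn). DESeq2 called 2 (Cnn1, Smtn), as did removal of the length trend, the fit with no filter 3 (Cnn1, Tagln, Smtn) and the fit of the dKO libraries alone 0 (Smtn adjusted p = 0.0839). All genes called numbered 1087, against 2376 by DESeq2 and 647 in the dKO libraries alone. For TAC against sham in control, where Cnn1 was called, DESeq2 called 3 of the 9 (Cnn1, Tagln2, Myl9), no filter 4 (with Tagln), limma-voom 0 (Cnn1 adjusted p = 0.183) and the control libraries alone 0 (Cnn1 adjusted p = 0.0976). All genes called numbered 331, against 1005 by DESeq2, 175 by limma-voom, 936 with no filter, 2 in the control libraries alone and 771 without the pair of dKO libraries that stood apart. For dKO against control after TAC, where Cnn2 was called, DESeq2 called 3 of the 9 (Cnn2, Myl9, Smtn), as did the fit without that pair, no filter and the length trend removed 2 (Cnn2, Myl9) and the TAC libraries alone 0 (Cnn2 adjusted p = 0.0669). All genes called numbered 63, against 320 by DESeq2, 129 with no filter, 508 without the pair and 116 with the length trend removed. After sham they numbered 10, against 62 by DESeq2, 53 with no filter, 5 in the sham libraries alone and 17 with the length trend removed, with 0 of the 9 each time. Over both surgeries 1 of the 9 was called, against 2 with no filter (Cnn2, Myl9), 2 without the pair (Cnn2, Smtn) and 2 with the length trend removed (Cnn2, Myl9), and 86 of all genes, against 348 by DESeq2, 174 with no filter and 198 without the pair. Over both genotypes 5 of the 9 were called with TAC, against 3 by limma-voom (Cnn1, Tagln2, Smtn) and 3 without the pair (Cnn1, Tagln, Smtn). The interaction had 0 calls, against 11 by DESeq2, 5 with no filter and 2 without the pair. The fit of only the groups compared could not be made for averaged comparisons or the interaction.

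Replicate numbers are shared by the groups, and the main fit did not treat same-numbered libraries as paired. Such libraries deviated together with a correlation over 0.1 in 9 of 18 pairs (-0.474 to 0.35). Libraries of different number were not compared in this way, so these values cannot decide whether the numbers mark pairs. With the replicate number as a block, 2 of the 9 were called with TAC in dKO (Cnn1, Smtn), 3 with TAC over both genotypes (Cnn1, Cnn3, Tagln2), and 41 of all genes for dKO against control after TAC. Under the block the Tagln difference after TAC was 0.050 and the Mylk change over both genotypes 0.034 (log2), the reverse of their signs without it. Other reversals were all in log2 values that passed in no setting. Without the pair, TAC in dKO gave Lmod1 -0.21 and Mylk -0.39, Tagln differed by -0.23 after sham and -0.30 over both surgeries, and the interaction of Mylk was -0.30. With the length trend removed, TAC in dKO gave Myl9 0.15 and Mylk -0.11, dKO against control after sham gave Cnn3 -0.058, Tagln -0.29 and Tagln2 -0.056, Tagln over both surgeries was -0.23, and the interactions were 0.12 for Tagln and -0.012 for Mylk. With limma-voom Tagln after TAC was 0.24, Mylk with TAC over both genotypes 0.035 and the interaction of Tagln 0.24.

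Without each library in turn, calls among the 9 numbered 0 to 3 with TAC in dKO, 0 to 5 with TAC in control, 0 for dKO against control after sham, 0 to 2 after TAC, 0 to 1 over both surgeries, 1 to 5 with TAC over both genotypes and 0 for the interaction. All genes called numbered 210 to 1389, 2 to 1130, 5 to 12, 8 to 252, 38 to 153, 1322 to 3074 and 0 to 1 in the same order. The log2 ranges that crossed 0 were, with TAC in dKO, -0.12 to 0.28 for Lmod1, -0.79 to 0.050 for Myl9 and -0.35 to 0.26 for Mylk; with TAC in control, -0.28 to 0.19 for Mylk; with TAC over both genotypes, -0.22 to 0.11 for Mylk. For dKO against control they were, after sham, -0.058 to 0.27 for Cnn3, -0.23 to 0.28 for Tagln and -0.58 to 0.13 for Myl9. After TAC they were -0.48 to 0.43 for Tagln and -0.39 to 0.35 for Lmod1, and over both surgeries -0.20 to 0.26 for Tagln and -0.28 to 0.065 for Tagln2. For the interaction they were -0.54 to 0.35 for Tagln and -0.26 to 0.35 for Mylk.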
